A study of Mus musculus with 6 samples.

Results

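The small leucine-rich proteoglycans are secreted proteins of the extracellular matrix, each with a short core of leucine-rich repeats that most members decorate with glycosaminoglycan chains. Their 10 members taken here were Dcn, Bgn, Aspn, Fmod, Lum, Prelp, Kera, Omd, Ogn and Podn, defined by gene name, a rule that reads no measured value, among 45616 genes on the array. They had 11 of the 56605 non-control probes, 2 for Prelp and 1 for each other member. The cells were cultured tail tissue fibroblasts of C57BL/6 mice. All groups, controls included, carried floxed LH2 alleles and a Cre transgene under CAG, a promoter active in most cell types, and LH2 (encoded by Plod2) is the lysyl hydroxylase that modifies collagen telopeptides before crosslinking. The cKO_no.1 cells (no.1) were given tamoxifen for 24 h and then medium that contained it. The cKO_no.2 cells (no.2) were given the same 24 h of tamoxifen and then medium without it, and control cells never had tamoxifen in their medium. Each group had 2 arrays, and the labels do not say whether these were separate cultures, so that p-values measure only the spread between these samples. No group here had tamoxifen with an intact gene, and tamoxifen exposure and LH2 deletion cannot be told apart against control. The names of the deposited files carry 0 h for control arrays and 24 h or 48 h for treated ones. Any effect of those hours cannot be told apart from treatment against control either.

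Members of this family bind collagen fibrils at set places along the fibril and limit their lateral growth. Decorin and biglycan, the class I members, usually carry chondroitin or dermatan sulfate, and fibromodulin, lumican, keratocan and osteoadherin, of class II, carry keratan sulfate. Several members also bind growth factors and receptors, among them TGF-beta, the receptor tyrosine kinase Met and Toll-like receptors. Fibroblasts of skin and tendon are a main source of decorin, biglycan, lumican and fibromodulin.

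Values are Agilent processed signals, which are background-subtracted intensities, and log2 levels, which are log2 signals minus the array's 75th percentile. Levels of different probes cannot be set against each other. The targeted gene Plod2 read 31.8 and 17.1 in no.1, 13.3 and 8.59 in no.2, and 42.1 and 34.9 in control. Its log2 fold change was -2.13 in no.1 (SE 0.34, limma adjusted p = 0.00613) and -2.57 in no.2 (SE 0.34, limma adjusted p = 0.00768). The share of probes above background was 53.4 to 53.5% in no.1, 48.4 to 48.6% in no.2 and 44.2 to 45.7% in control. The 75th percentile of signal was 85.1 to 95.9 in no.1, 55.1 to 56.9 in no.2 and 33.7 to 34.2 in control. Relative to the 8 spike-in control probes the median gene lay 1.73 (log2) higher in no.1 and 1.15 higher in no.2 than in control, while after percentile scaling it lay at -0.12 and -0.10. With the spike-ins as the scale the Plod2 fold change was -0.28 in no.1 (limma adjusted p = 0.443) and -1.31 in no.2 (limma adjusted p = 0.0118). On the single slide row 1 held the control arrays and row 2 all others, so that row and group cannot be told apart. The 17 fibroblast markers were well above background on both arrays of every group. Their summed level, relative to the array's 75th percentile, was 3354 to 3364 in no.1, 3733 to 4194 in no.2 and 7608 to 7972 in control.

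Most members lie beside a relative in the RefSeq gene order. Prelp stands between Optc and Fmod on chromosome 1, Dcn is followed by Lum, Kera and Epyc on chromosome 10, and Ecm2, Aspn, Omd and Ogn follow each other on chromosome 13. Bgn on chromosome X and Podn on chromosome 4 have no neighbour of the family. The 250 bases before the RefSeq start (build GRCm38.p6, credited to RefSeq, whereas the array files name mm9) are shown for 4 members: the neighbours Prelp and Fmod, which had the lowest fold changes of the family in both groups, Ogn from the chromosome 13 cluster, and Bgn, whose fold change was positive in both. They are chr1:133921402-133921651 on the minus strand for Prelp, chr1:134037004-134037253 on the plus strand for Fmod, chr13:49607765-49608014 on the plus strand for Ogn and chrX:73483351-73483600 on the plus strand for Bgn. Capitals mark matches on either strand to 5 short motifs. The TATA box was searched as TATAAA. The letters for the GC box were GGGCGG, those for the core site of TEAD factors GGAATG and those for the AP-1 site TGANTCA. The SMAD element was searched as CAGAC.
Prelp: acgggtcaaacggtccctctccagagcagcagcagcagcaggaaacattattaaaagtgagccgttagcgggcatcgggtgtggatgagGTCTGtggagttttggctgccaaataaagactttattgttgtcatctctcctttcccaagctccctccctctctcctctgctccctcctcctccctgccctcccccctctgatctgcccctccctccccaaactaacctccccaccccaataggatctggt
Fmod: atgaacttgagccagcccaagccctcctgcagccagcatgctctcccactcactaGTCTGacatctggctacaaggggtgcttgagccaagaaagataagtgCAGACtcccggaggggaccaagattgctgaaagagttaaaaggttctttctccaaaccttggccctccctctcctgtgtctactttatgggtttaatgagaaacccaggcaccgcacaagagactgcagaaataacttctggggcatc
Ogn: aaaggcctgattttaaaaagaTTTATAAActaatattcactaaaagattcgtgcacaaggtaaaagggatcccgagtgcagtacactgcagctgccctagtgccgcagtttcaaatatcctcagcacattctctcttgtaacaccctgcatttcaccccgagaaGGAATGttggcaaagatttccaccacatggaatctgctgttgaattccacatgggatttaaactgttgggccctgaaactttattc
Bgn: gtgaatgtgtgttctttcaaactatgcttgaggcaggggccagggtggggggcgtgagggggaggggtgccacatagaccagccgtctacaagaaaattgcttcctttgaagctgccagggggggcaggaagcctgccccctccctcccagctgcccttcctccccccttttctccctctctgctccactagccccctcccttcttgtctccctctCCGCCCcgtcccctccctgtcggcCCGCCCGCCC
Prelp held 1 match to CAGAC and none to the other 4 motifs in capitals, and Fmod held 2 matches to CAGAC. Ogn held 2 matches to TATAAA, on opposite strands and overlapping each other, and 1 to GGAATG. Bgn held 3 matches to GGGCGG, of which 2 overlap. CANNTG (E-box), left in lower case, matched 3 times in Ogn, once each in Fmod and Bgn and not in Prelp. Of 32851 promoters of this length in the table, 42.2% held CAGAC, 66.2% CANNTG, 32.7% GGGCGG, 12.6% GGAATG, 12.4% TATAAA and 6.75% TGANTCA. Promoters of 8 of the 10 members were in the table. These matches describe letters in a window and no binding was measured.

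Of the 10 members, 6 were well above background on all 6 arrays and entered the fit, namely Dcn, Bgn, Fmod, Prelp, Ogn and Podn. In no.1, 5 of these 6 were called lower than control and 0 higher (limma, Benjamini-Hochberg adjusted p under 0.05 over 23060 genes), where 26.4% of all tested genes were called lower and 21.4% higher (47.8% in either direction). In no.2, 3 of the 6 were called lower and 0 higher, against a background of 16.2% lower and 12.1% higher (28.3% in either direction). The count of 0 called higher compares with 5 and 3 members at an unadjusted p under 0.05, all of them lower. The median log2 fold change over the 6 tested members was -3.14 in no.1 and -1.94 in no.2, beside -0.12 and -0.10 over all genes tested. With both control arrays averaged into 1 sample, 3 members in no.1 (Prelp, Dcn and Fmod) and 1 in no.2 (Prelp) were called lower. In that setting 4846 and 1246 of the 23060 genes were called in either direction. With the spike-ins as the scale the same 3 were called lower in no.1, with log2 fold changes of -6.02 for Prelp (limma adjusted p = 0.000837), -2.15 for Fmod (limma adjusted p = 0.0376) and -1.88 for Dcn (limma adjusted p = 0.0134), and Prelp alone in no.2 (-4.11, limma adjusted p = 0.00762). On that scale Bgn was called higher in no.1 (2.30), and Bgn (1.85) and Podn (1.55) in no.2. Among all tested genes 80.9% were then called higher and 2.13% lower in no.1, and 65.3% and 2.48% in no.2. In bulk cultures fewer cells of a type and less RNA per cell cannot be told apart.

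**Figure D1:**
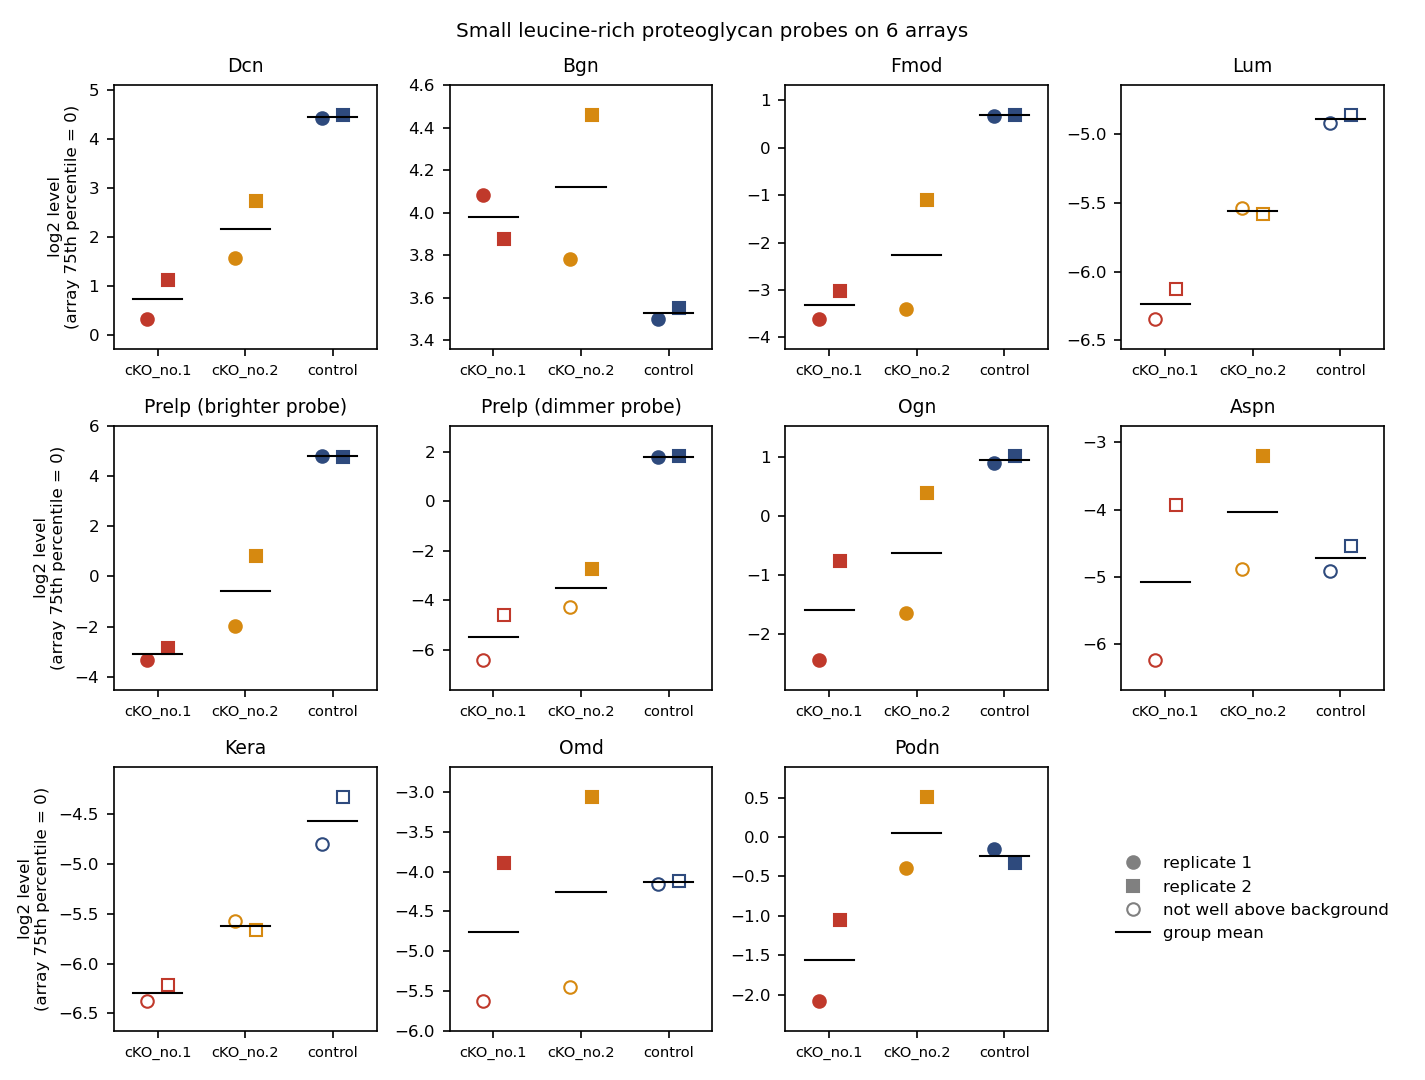
Log2 level (log2 signal minus the array's 75th percentile, vertical axis) of all 11 member probes on each array, with no.1 left, no.2 in the middle and control right, circles for replicate 1, squares for replicate 2, open symbols where not well above background and a bar at the group mean. The control points of Dcn, Fmod and Prelp lie above every no.1 and no.2 point, whereas those of Bgn lie below them.

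Decorin (Dcn), which binds collagen and sequesters TGF-beta, read 121.8 and 184.8 in no.1, 165.1 and 380.2 in no.2, and 733.8 and 756.8 in control. Both treated groups lay below control on every array without overlap, although the 75th percentile of signal was higher on their arrays. The mean log2 level was 0.73 ± 0.55 in no.1, 2.16 ± 0.82 in no.2 and 4.46 ± 0.046 in control (SD, n = 2 each). Against control, Dcn fell 13.2-fold in no.1 (log2 fold change -3.73, SE 0.44, limma adjusted p = 0.00320). In no.2 it fell 4.91-fold (log2 fold change -2.29, SE 0.44, limma adjusted p = 0.0172). The no.1 call was kept in each of the 17 other settings, whereas the no.2 call was lost without control replicate 1 (adjusted p = 0.0604), without control replicate 2 (adjusted p = 0.0685) and with spike-in scaling (log2 fold change -1.04, adjusted p = 0.120).

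Biglycan (Bgn), the closest relative of decorin and a ligand of Toll-like receptors, read 1627 and 1248 in no.1, 757.4 and 1252 in no.2, and 386.8 and 394.8 in control. Every no.1 and no.2 array read above both control arrays before scaling. The scaled log2 level averaged 3.98 ± 0.15 in no.1, 4.12 ± 0.48 in no.2 and 3.53 ± 0.035 in control (SD, n = 2 each). The log2 fold change was 0.45 in no.1 (95% interval -0.21 to 1.12, limma adjusted p = 0.209) and 0.59 in no.2 (95% interval -0.068 to 1.26, limma adjusted p = 0.142). Neither passed the threshold. Relative to the spike-ins Bgn was higher in no.1 (log2 fold change 2.30, limma adjusted p = 0.00156) and in no.2 (1.85, limma adjusted p = 0.00707), where 80.9% and 65.3% of all genes were called higher and 2.13% and 2.48% lower. It also passed in no.1 with scaling to the median probe (0.88, adjusted p = 0.0491) and in no.2 without no.2 replicate 1 (0.93, adjusted p = 0.0367).

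Asporin (Aspn), a class I member that carries no glycosaminoglycan in the forms described and inhibits TGF-beta signalling, read 1.28 and 5.56 in no.1, 1.87 and 6.18 in no.2, and 1.14 and 1.46 in control. It was well above background on no.2 replicate 2 alone and was not tested.

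Prolargin (Prelp), a class II member that binds collagen and heparan sulfate, had the lowest fold change of the family in both groups. Its brighter probe read 9.66 and 11.7 in no.1, 13.9 and 100.1 in no.2, and 944.3 and 918.0 in control. No treated array reached the control range, and no.2 replicate 2 was the highest of the 4. The mean log2 level was -3.09 ± 0.32 in no.1, -0.59 ± 1.98 in no.2 and 4.78 ± 0.015 in control (SD, n = 2 each). Against control, Prelp fell 233.4-fold in no.1 (log2 fold change -7.87, SE 0.83, limma adjusted p = 0.00263) and 41.2-fold in no.2 (log2 fold change -5.36, SE 0.83, limma adjusted p = 0.0107). These were the 12th and 41st lowest fold changes of the 23060 genes. Both calls were kept in each of the 17 other settings, with a range of -8.09 to -4.57 in no.1 and -6.77 to -3.79 in no.2. The smallest size in each group came from normexp background correction with an offset of 50, a value that exceeds the Prelp signal on all treated arrays except no.2 replicate 2.

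The second Prelp probe read 1.14 and 3.53 in no.1, 2.84 and 8.56 in no.2, and 116.8 and 119.8 in control. It was not well above background on either no.1 array and on 1 of the 2 no.2 arrays. In a fit of every probe it was at least 65.2-fold lower in no.1 than in control (limma adjusted p = 0.00199), a bound set by the lowest signal counted as above background. In no.2 its log2 fold change was -5.31 (limma adjusted p = 0.00731), so both probes gave the same direction in both groups.

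Fibromodulin (Fmod), a collagen-binding keratan sulfate proteoglycan of tendon, read 7.91 and 10.4 in no.1, 5.18 and 26.5 in no.2, and 54.6 and 54.5 in control. All 4 treated arrays lay below both control arrays, with no.2 replicate 2 nearest to them. The mean log2 level was -3.31 ± 0.40 in no.1, -2.25 ± 1.63 in no.2 and 0.69 ± 0.011 in control (SD, n = 2 each). Against control, Fmod fell 16.0-fold in no.1 (log2 fold change -4.0, SE 0.71, limma adjusted p = 0.00766) and 7.67-fold in no.2 (log2 fold change -2.94, SE 0.71, limma adjusted p = 0.0298). The no.2 value rested on which array was kept, with -1.79 without no.2 replicate 1 and -4.09 without no.2 replicate 2, both called. The no.1 call was lost without no.1 replicate 1 (adjusted p = 0.0557). The no.2 call was lost without control replicate 1 (adjusted p = 0.0878), control replicate 2 (0.0946) or either no.1 array (0.0587 each), and with spike-in scaling (log2 fold change -1.68, adjusted p = 0.0959). With normexp correction the log2 fold changes were -1.35 in no.1 and -1.10 in no.2, both still called.

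Of the other class II members, osteoadherin (Omd), known from bone, read 1.95 and 5.71 in no.1, 1.26 and 6.81 in no.2, and 1.92 and 1.95 in control. It was well above background on replicate 2 of no.1 and of no.2 and on no control array. Lumican (Lum), a keratan sulfate proteoglycan of cornea and skin, read between 1.13 and 1.22 on all 6 arrays, and keratocan (Kera), of the cornea, between 1.12 and 1.68. Both were well above background on no array, each by its single probe.

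Osteoglycin (Ogn), the class III member also called mimecan, read 17.7 and 50.1 in no.1, 17.5 and 73.9 in no.2, and 63.4 and 68.0 in control. Before scaling, no.2 replicate 2 read above both control arrays, and after scaling all 4 treated arrays lay below them. The mean log2 level was -1.60 ± 1.19 in no.1, -0.64 ± 1.44 in no.2 and 0.95 ± 0.085 in control (SD, n = 2 each). Against control, Ogn fell 5.87-fold in no.1 (log2 fold change -2.55, SE 0.78, limma adjusted p = 0.0381). In no.2 the log2 fold change of -1.59 did not pass (95% interval -3.49 to 0.31, limma adjusted p = 0.164). Its no.1 call did not hold without control replicate 1 (adjusted p = 0.0893), control replicate 2 (0.103) or no.1 replicate 1 (log2 fold change -1.71, adjusted p = 0.191), with no filter on dim probes (0.0588) and with spike-in scaling (log2 fold change -0.71, adjusted p = 0.449). With normexp correction the no.1 value was -1.13 and was called.

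Podocan (Podn), a class V member that binds collagen, read 22.8 and 41.1 in no.1, 41.9 and 80.8 in no.2, and 30.8 and 26.9 in control. In processed signal the no.1 arrays lay on both sides of control and the no.2 arrays above it. The mean log2 level was -1.56 ± 0.73 in no.1, 0.056 ± 0.64 in no.2 and -0.24 ± 0.12 in control (SD, n = 2 each). Against control, Podn fell 2.5-fold in no.1 (log2 fold change -1.32, SE 0.43, limma adjusted p = 0.0476). In no.2 the log2 fold change was 0.30 (95% interval -0.76 to 1.35, limma adjusted p = 0.623). The sign in no.1 turned with spike-in scaling (log2 fold change 0.53, adjusted p = 0.361), under which Podn was higher in no.2 (1.55, adjusted p = 0.0304). Leaving out control replicate 1 (adjusted p = 0.145), control replicate 2 (0.112) or no.1 replicate 1 (-0.81, adjusted p = 0.208) also ended the no.1 call, as did 5 other choices of background correction, scaling and filter (adjusted p = 0.0568 to 0.103).

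**Figure D2:**
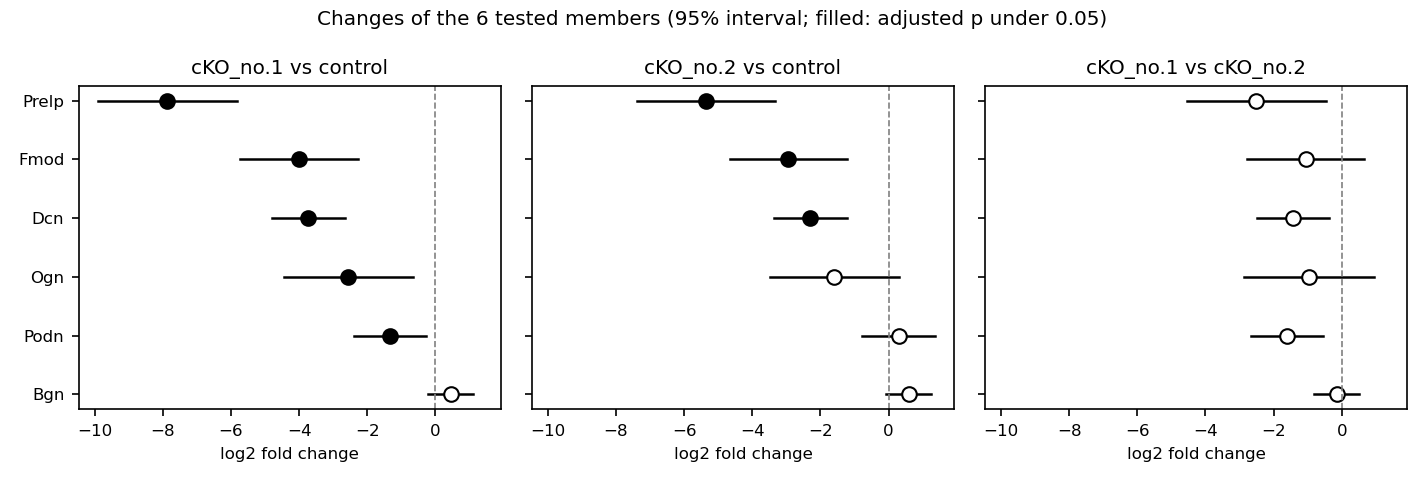
Log2 fold change (horizontal axis) of each tested member in no.1 against control, no.2 against control and no.1 against no.2, with 95% intervals from the limma fit and filled symbols at an adjusted p under 0.05. Prelp, Fmod and Dcn lie below 0 in both groups with intervals that exclude it, and the Bgn intervals reach from -0.21 to 1.12 in no.1 and from -0.068 to 1.26 in no.2.

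**Figure D3:**
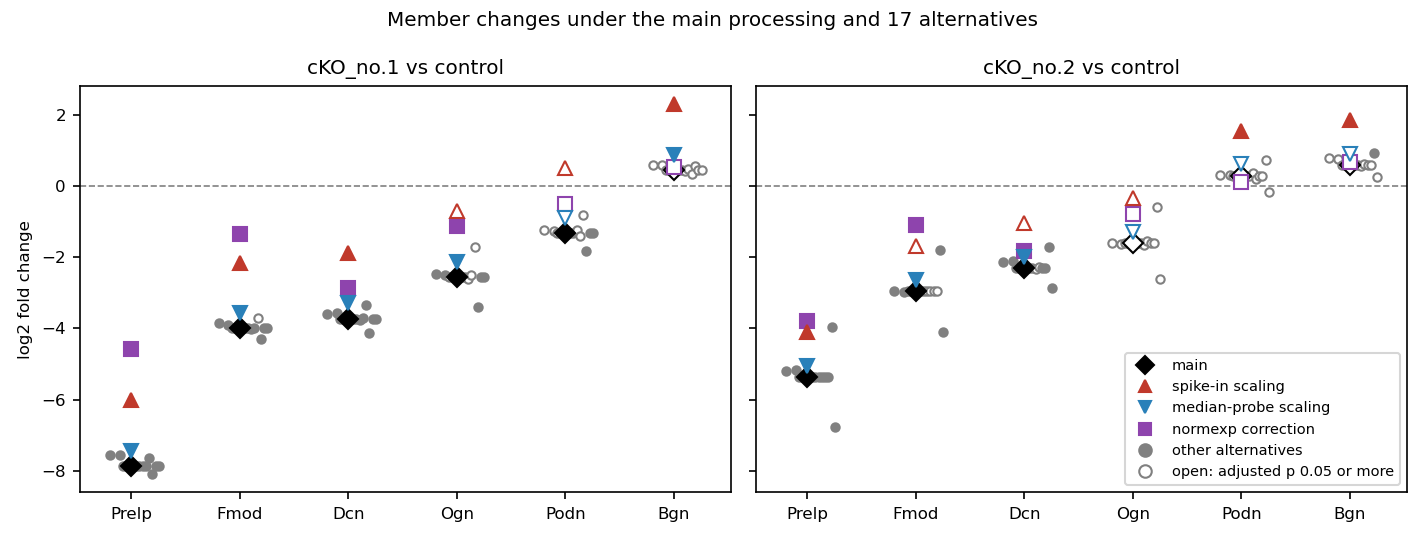
Log2 fold change against control of each tested member (vertical axis) in the reported setting (diamond) and in 17 others, with 1 point per setting and open symbols at an adjusted p of 0.05 or more. Prelp stays below 0 throughout in both groups, and Podn in no.1 crosses 0 with spike-in scaling.

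The comparison that the series' own design text states is no.1 with no.2, and these groups differ in whether tamoxifen stayed in the medium after the first 24 h. No member was called between them (0 of 6 by limma, with 0% of all genes called, and 3 members with an unadjusted p under 0.05). Over all genes the lowest adjusted p was 0.206. All 6 log2 fold changes were below 0, with a median of -1.25 beside -0.011 over all genes, of which 51.0% were below 0. Without no.2 replicate 2, 3 of the 6 turned positive (Fmod 0.094, Ogn 0.056 and Bgn 0.20) and the median was -0.40, and with spike-in scaling Bgn turned positive (0.45) and the median was -0.65. Prelp differed by -2.50, Podn by -1.62 and Dcn by -1.43, each with a limma adjusted p of 0.282. Podn and Dcn read lower on both no.1 arrays than on both no.2 arrays after scaling, as did Prelp. Fmod differed by -1.06 (limma adjusted p = 0.448), Ogn by -0.96 (limma adjusted p = 0.528) and Bgn by -0.14 (95% interval -0.80 to 0.52, limma adjusted p = 0.802). The no.1 arrays lay in columns 1 and 2 of the slide and the no.2 arrays in columns 3 and 4, so that column and group cannot be told apart. Both comparisons against control share the same 2 control arrays.

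The arrays within each treated group differed in most members. After scaling, replicate 2 read higher than replicate 1 in both no.1 and no.2 for 5 of the 6 tested members, where 23% of all tested genes did so, a comparison with no test. In no.2 the gap was 2.80 for Prelp, 2.31 for Fmod, 2.03 for Ogn, 1.16 for Dcn and 0.90 for Podn on the log2 scale. In no.1 the same gaps were 0.45, 0.57, 1.68, 0.78 and 1.03. Bgn was the exception, with gaps of -0.21 in no.1 and 0.68 in no.2. Between the control arrays no tested member's gap exceeded 0.18 in size. The names of the deposited files carry 24 h for replicate 1 and 48 h for replicate 2 of both treated groups, and 0 h for the controls, whereas the labels give 24 h for all treated samples. The part of that time in the gaps, and in the differences from control, was not tested. If the hours are time points, the SDs of the treated groups and the SEs hold time as well as replicate spread.

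By the distance between log2 levels centred on each gene's own mean over the 6 arrays, the 3 nearest of 12058 genes were listed for each tested member. Prelp was nearest to Serping1 (distance 1.16), C2 (1.19) and Ccl8 (1.36), all of which are genes of complement or chemokine proteins. Dcn was nearest to Atp9a (0.36), Svep1 (0.45) and Rtn2 (0.55), and Fmod to Sdk1 (0.68), Cemip (0.93) and Gas6 (0.96). Ogn was nearest to Igsf10 (0.77), Abca1 (0.79) and Efemp1 (0.82). Podn was nearest to Col6a2 (0.20), Nanog (0.31) and Gpr146 (0.37), of which Nanog has near-identical copies in the genome and is uncertain here. Bgn was nearest to Sulf1 (0.13), Meis2 (0.16) and Zfp46 (0.18). For scale, the members' own distances from a flat profile were 8.28 for Prelp, 4.47 for Fmod, 3.89 for Dcn, 3.18 for Ogn, 1.98 for Podn and 0.80 for Bgn.

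Of 8 further genes of the family, 4 were tested. Chadl, the chondroadherin-like gene, was lower in no.1 (log2 fold change -2.03, SE 0.20, limma adjusted p = 0.00223) and in no.2 (-1.27, limma adjusted p = 0.0110). These are values of its brighter probe, and a second Chadl probe was well above background on no array. Tsku, a secreted inhibitor of BMP and TGF-beta signalling, was lower in no.1 (-1.71, limma adjusted p = 0.00513) and in no.2 (-1.34, limma adjusted p = 0.0171), and Podnl1, the podocan-like gene, in no.1 (-1.90, limma adjusted p = 0.00577) and in no.2 (-1.35, limma adjusted p = 0.0246). With spike-in scaling these 3 lay near 0 in no.1 (-0.18, 0.14 and -0.055) and in no.2 (-0.018, -0.083 and -0.090), and with the control arrays averaged all 3 no.2 calls were lost (adjusted p = 0.0719, 0.0864 and 0.105).

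Opticin (Optc), a class III member known from the vitreous of the eye and the neighbour of Prelp, went the other way. One Optc probe read 194.7 and 134.8 in no.1, 81.9 and 65.7 in no.2, and 3.14 and 4.49 in control, where it was not well above background. It was at least 13.4-fold higher in no.1 than in control (limma adjusted p = 0.000921) and at least 9.79-fold higher in no.2 (limma adjusted p = 0.00205). A second Optc probe was above background on no array, so that the 2 probes disagree. Ecm2, Epyc, Nyx and Chad were above background on no array.

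**Figure D4:**
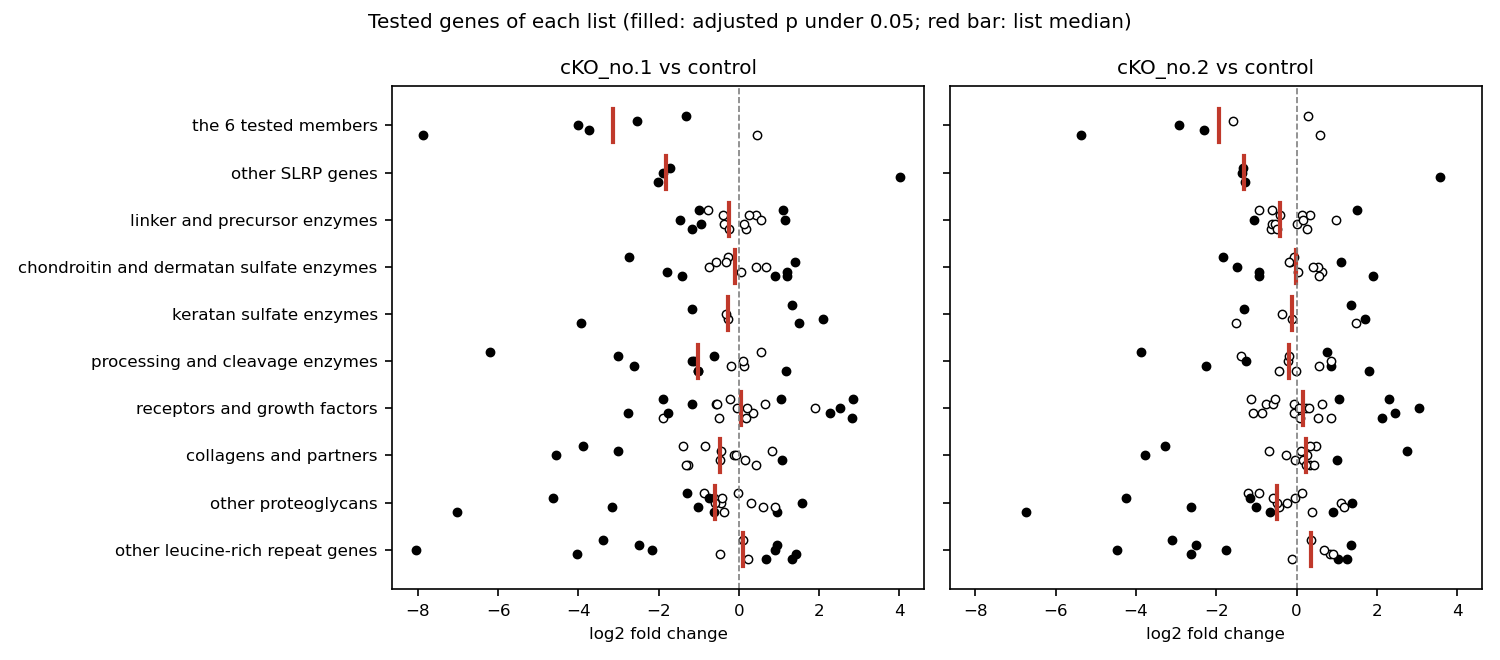
Log2 fold change against control (horizontal axis) of every tested gene of the family and of the related gene lists, 1 list per line, with a red bar at each list's median and filled points for called genes. The members' median lies at -3.14 in no.1 and -1.94 in no.2, and the other lists spread on both sides of 0.

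With percentile scaling, enzymes that build the chains of these proteoglycans were called in both directions, in lists to be read beside all tested genes (21.4% called higher and 26.4% lower in no.1, 12.1% and 16.2% in no.2). Of 15 tested genes of the tetrasaccharide linker and of sugar and sulfate supply, 2 were called higher and 4 lower in no.1, and 1 each way in no.2. B4galt7, which adds the first galactose of the linker, was lower in no.1 (log2 fold change -1.47, SE 0.19, limma adjusted p = 0.00379) and no.2 (-1.05, limma adjusted p = 0.0155). Papss1, which makes the sulfate donor, was higher in no.1 (1.09, limma adjusted p = 0.00984) and no.2 (1.51, limma adjusted p = 0.00842). B3galt6, the second galactosyltransferase of the linker, and Xylt2, a xylosyltransferase that starts it, were lower in no.1 (-1.18 and -0.99, limma adjusted p = 0.00810 and 0.0111), and the sulfate transporter Slc26a2 was at least 1.69-fold higher there (limma adjusted p = 0.0282). With spike-in scaling the signs of B4galt7, B3galt6 and Xylt2 turned in no.1, as they did in no.2, where B3galt6 and Xylt2 were called in neither scaling. The list then had 13 higher and 0 lower in no.1 and 9 higher and 0 lower in no.2, and with averaged controls 0 higher and 1 lower in no.1 and 0 called in no.2. The list's median was -0.25 in no.1 and -0.41 in no.2, beside -0.12 and -0.10 over all genes.

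Of 14 tested chondroitin and dermatan sulfate enzymes, 4 were called higher and 3 lower in no.1, and 2 higher and 4 lower in no.2, with medians of -0.11 and -0.0067. Csgalnact1, which starts the chondroitin chain, was lower in no.1 (-2.75, SE 0.32, limma adjusted p = 0.00309) and no.2 (-1.84, limma adjusted p = 0.0136). The chain-elongation genes Chpf2 and Chpf were lower in no.1 (-1.78 and -1.42, limma adjusted p = 0.00455 and 0.00460). In no.2 both were also called lower (-0.93 each, limma adjusted p = 0.0234 for Chpf). Chsy1, the chondroitin synthase, was higher in no.1 (1.40, limma adjusted p = 0.0120) and also called higher in no.2 (1.11). Of the sulfotransferases, Chst15 was higher in no.2 (1.91, limma adjusted p = 0.00822) and Chst11 lower (-1.48, limma adjusted p = 0.0184). With spike-in scaling the list had 11 higher and 0 lower in no.1 and 9 and 0 in no.2, the signs of Chpf2 and Chpf turned in both groups, and the Csgalnact1 calls were lost (-0.90, adjusted p = 0.0769 in no.1, and -0.58, adjusted p = 0.238 in no.2). The Chst11 call in no.2 was lost too (-0.23, adjusted p = 0.618). With averaged controls the list had 0 higher and 3 lower in no.1 and 1 and 0 in no.2, where the calls of Csgalnact1 (adjusted p = 0.0658) and Chst11 (0.0846) were lost. Of 7 tested keratan sulfate enzymes, 3 were called higher and 2 lower in no.1, and 2 higher and 1 lower in no.2, with medians of -0.28 and -0.10. The keratan sulfate sulfotransferase Chst1 was lower in no.1 (-1.17, limma adjusted p = 0.0384) and no.2 (-1.30, limma adjusted p = 0.0424), with the sign turned in no.1 under spike-in scaling and the no.2 call lost (-0.041, adjusted p = 0.903). Chst5, a further sulfotransferase, was at least 5.65-fold lower in no.1 (limma adjusted p = 0.00403). The genes named from this list are thus all lower. The 3 called higher in no.1, with log2 fold changes of up to 2.08, and the 2 called higher in no.2 are not named here. The keratan sulfate list had 5 higher and 1 lower in no.1 and 5 and 0 in no.2 with spike-in scaling, and 3 and 1 in no.1 and 1 and 0 in no.2 with averaged controls.

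Of 13 tested proteases, enhancers and inhibitors that process or cleave matrix proteins of this kind, 1 was called higher and 7 lower in no.1, and 3 each way in no.2, with medians of -1.02 and -0.20. Beside them, 21.4% of all tested genes were called higher and 26.4% lower in no.1, and 12.1% and 16.2% in no.2. Timp3, a matrix-bound metalloproteinase inhibitor, was lower in no.1 (-2.61, SE 0.24, limma adjusted p = 0.00184) and no.2 (-2.26, limma adjusted p = 0.00424). In no.1 the protease Mmp3 (-3.02, limma adjusted p = 0.00805), the procollagen proteinase enhancer Pcolce (-1.02, limma adjusted p = 0.00993) and the tolloid-like protease Tll1 (-1.16, limma adjusted p = 0.0105) were lower. In no.2 Tll1 was lower (-1.25, limma adjusted p = 0.0158) and the proteases Adamts1 (1.81, limma adjusted p = 0.0157) and Htra1 (0.76, limma adjusted p = 0.0326) were higher. Adamts1 was also the 1 gene called higher in no.1 (1.16). Mmp9, a gelatinase, was at least 18.6-fold lower in no.1 (limma adjusted p = 0.000428) and at least 11.3-fold lower in no.2 (limma adjusted p = 0.00194). With spike-in scaling the balance turned to 7 higher and 1 lower in no.1 and 7 and 2 in no.2 (medians 0.83 and 1.06), as did the signs of Pcolce and Tll1 in both groups. The no.1 calls of Timp3 (-0.76, adjusted p = 0.0622) and Mmp3 (-1.17, adjusted p = 0.101) were lost there. With averaged controls 0 were higher and 3 lower in no.1, and 0 and 2 in no.2.

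Of 20 tested receptors and growth factors bound by the family, 5 were called higher and 4 lower in no.1, and 5 higher and 0 lower in no.2, with medians of 0.061 and 0.16. The shares over all tested genes were 21.4% higher and 26.4% lower in no.1, and 12.1% and 16.2% in no.2. The genes named below are all higher, and the 4 called lower in no.1 are not named. The lowest log2 fold change of the list in no.1 was -2.76. Tgfb2, a ligand of the TGF-beta family, was higher in no.1 (2.83, SE 0.29, limma adjusted p = 0.00237) and no.2 (2.30, limma adjusted p = 0.00652). The hepatocyte growth factor receptor Met was higher in no.1 (2.83, limma adjusted p = 0.00313) and no.2 (2.13, limma adjusted p = 0.0104), as was the matricellular gene Ccn4 in no.1 (2.27, limma adjusted p = 0.00372) and no.2 (2.46, limma adjusted p = 0.00573). The Wnt co-receptor Lrp6 was higher in no.1 (1.06, limma adjusted p = 0.00825) and no.2 (1.07, limma adjusted p = 0.0150), and the purinergic receptor P2rx7 was at least 3.04-fold higher in no.1 (limma adjusted p = 0.00474) and at least 4.41-fold in no.2 (limma adjusted p = 0.00577). The list had 15 higher and 0 lower in no.1 and 14 and 0 in no.2 with spike-in scaling, and 4 and 1 in no.1 and 3 and 0 in no.2 with averaged controls, which ended the Lrp6 calls (adjusted p = 0.0583 and 0.0946) and the Met call in no.2 (0.0508).

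Of 15 tested collagens and partners that the family binds, 1 was called higher and 3 lower in no.1, and 2 higher and 2 lower in no.2, with medians of -0.46 and 0.24. Over all tested genes the shares were 21.4% higher and 26.4% lower in no.1, and 12.1% and 16.2% in no.2. Tnxb, a tenascin of connective tissue, was lower in no.1 (-3.89, SE 0.31, limma adjusted p = 0.00142) and no.2 (-3.29, limma adjusted p = 0.00329). Col5a3, a chain of collagen V, was lower in no.1 (-3.01, limma adjusted p = 0.0134), and Col6a3, a chain of beaded collagen VI, was higher in no.1 (1.08, limma adjusted p = 0.0152) and no.2 (1.00, limma adjusted p = 0.0310). Tgfbi, a collagen-binding matrix protein, was higher in no.2 (2.76, limma adjusted p = 0.0424). With spike-in scaling 9 were higher and 1 lower in each group, and the Col5a3 call was lost (-1.16, adjusted p = 0.167). With averaged controls 0 were higher and 2 lower in no.1 and 0 and 1 in no.2, so that the calls of Col6a3 and Tgfbi were lost. No gene of any list was called between no.1 and no.2 by limma, where 3825 of all 23060 genes had an unadjusted p under 0.05.

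Markers of other cell types were given with the same scaling, and their part in the members' values was not tested. The tendon list, which holds the members Fmod and Kera, summed to 31.2 to 34.5 in no.1, 25.5 to 35.3 in no.2 and 96.0 to 97.2 in control, with 6, 6 and 7 of 11 genes above background on both arrays. Tnmd and Thbs4, which mark tendon cells, were above background on both control arrays, on neither no.1 array and each on a single no.2 array. Mkx went the other way, above background on both arrays of no.1 and of no.2 and on neither control array. Scx, Col14a1, Egr1, Egr2 and Fmod were above background on both arrays of every group. The median log2 fold change of the tested tendon genes was 0.12 in no.1 and -0.15 in no.2. The cartilage list summed to 3.45 to 5.24 in no.1, 6.17 to 17 in no.2 and 6.80 to 7.07 in control, with Acan, Matn1 and Hapln1 above background on no array. Col11a1, Col2a1, Col9a2 and Sox9 were above background on both arrays of every group, and Col11a2 and Comp on both arrays of control alone. The bone list summed to 36.6 to 129.0 in no.1, 83.9 to 111.2 in no.2 and 29.9 to 31.4 in control, with Sp7 and Ibsp above background on no array. Bglap2, Runx2 and Spp1 were above background on both arrays of every group. Mepe was so on both arrays of no.1 and of no.2, and Bglap on both no.2 arrays, each on neither control array. The smooth muscle and pericyte list summed to 799.5 to 1446 in no.1, 950.2 to 981.2 in no.2 and 1091 to 1124 in control, and Rgs5 was above background on no array. Acta2, Cnn1, Cspg4, Mcam, Myh11 and Tagln were above background on both arrays of every group. The macrophage and leukocyte list summed to 28.8 to 32.9, 30.1 to 36.9 and 46.1 to 49.2 in the same order. In each group 4 of its 11 genes (Cd14, Cd68, Csf1r and Itgam) were above background, and Ptprc, Adgre1 and Lyz2 were so on no array. The keratinocyte list summed to 17.2 to 17.3, 18.3 to 19.2 and 19.9 to 20.8 (6 of 13 genes in each group, Krt5 and Krt14 on no array). Its genes above background on both arrays of every group were Dsc3, Krt10, Krt17, Perp, Sfn and Trp63. The Schwann cell list summed to 24.8 to 25.1, 26.4 to 41.0 and 42.6 to 43.4 (Sox10 on no array), and the adipocyte list to 3.78 to 4.37, 3.52 to 4.05 and 5.78 (Adipoq and Plin1 on no array). Mbp, Ncam1 and Pmp22 of the first list and Fabp4, Lep, Lpl and Pparg of the second were above background on both arrays of every group. S100b was so in control alone. The endothelial list summed to 0.33 to 0.41, 0.42 to 0.54 and 0.65 to 0.76 (Cdh5 and Vwf on no array), and the skeletal muscle list to 12.7 to 21.6, 15.2 to 19.1 and 16.1 to 17.6 (Myod1 and Pax7 on no array). Above background on both arrays were Pecam1 and Kdr in no.1, Pecam1 in no.2 and Esam in control, and Acta1 and Actn3 in every group.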

How the data were processed

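Total RNA was measured on 6 Agilent 1-colour arrays. The deposited intensity values were processed signals of Agilent Feature Extraction 12.1.1.1, per the file headers (9.5.1.1 in the submitters' processing notes). They are background-subtracted and not normalized between arrays. The value table that the authors deposited, also of intensity, was an alternative, and 0 of its columns lacked a sample. Log2 signals were centred on each array's 75th percentile over non-control probes. Accessions were matched to RefSeq symbols (32994 probes, 58.3%), and each gene was represented by its brightest probe. An accession without a symbol was counted as a gene of its own. The fit took in the 23060 genes, so counted, whose probe exceeded background on each array of 1 or more groups. Of these, 14081 had a symbol, and shares of all tested genes include the others. Tests used limma 3.58.1 in R 4.3.3 (with data.table, version 1.17.8), fitting a group mean to the 6 arrays together (3 residual degrees of freedom), and were checked on simulated data. The number of arrays limits the precision.

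The rule for the members reads gene names only, but the family and all lists were picked with earlier results of these data known. Named are all members, up to 4 called genes per list and contrast (smallest adjusted p, above background on all arrays, same direction in all 4 array pairs), bounds, and the 3 nearest genes per member. Between no.1 and no.2 the lists are given as counts only. Replicate numbers were checked for pairing by the correlation of deviations (0.17 between no.1 and no.2, -0.035 and -0.017 against control) and were not taken as pairs. Normexp was run on the median signal, since the files hold no mean signal, an alternative chosen after seeing the data. Other alternatives changed scaling, filter, probe rule, design and arrays.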

Additional observations from a re-analysis of the deposited data

Results flagged for a closer look

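A member below background in control read above it on single treated arrays in 3 cases. Asporin (Aspn) read 6.18 on no.2 replicate 2, where the control arrays read 1.14 and 1.46. Osteoadherin (Omd) read 5.71 on no.1 replicate 2 and 6.81 on no.2 replicate 2, where the control arrays read 1.92 and 1.95. These genes entered no test, and the lowest signals counted as above background on the 6 arrays lay between 4.50 and 4.92.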

How the results depend on the processing

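Scaling to the spike-ins left 3 members lower and 1 higher in no.1 and 1 lower and 2 higher in no.2, with 19155 and 15633 genes called. With it the log2 fold change, called in either scaling, turned positive in no.1 for Podn (0.53), Tsku (0.14), Chst11 (1.11), Sdc1 (0.82), Xylt2 (0.86), Chpf2 (0.063), B4galt7 (0.37), Pcolce (0.82), Chst1 (0.68), Chpf (0.43), Tll1 (0.69), B3galt6 (0.67) and Vcan (1.09). Of values called in either scaling, it turned positive in no.2 for Sdc1 (0.24), Chpf2 (0.33), B4galt7 (0.21), Pcolce (0.83), Chpf (0.33), Tll1 (0.0067) and Vcan (0.093). Averaging the control arrays left 3 and 1 members lower (4846 and 1246 genes called). Without a filter on dim probes more genes were tested, and 24872, 16476 and 8296 were called in no.1, no.2 and between them, with 5 members lower in no.1 (Ogn and Podn lost their calls, and Lum and Kera, above background on no array, were added), 5 in no.2 (Lum and Kera added) and 1 between them (Lum). With the median probe as the scale 1 member was higher in no.1. Leaving out 1 array at a time gave 2 to 5 members lower in no.1 (4999 to 12054 genes called), 1 to 3 lower and 0 to 1 higher in no.2 (1298 to 6365 genes called), and 0 to 117 genes called between them. The lowest counts came without no.1 replicate 1 for members in no.1 and without either control array in no.2. With the replicate number as a block, 5 and 3 members were lower and 10572, 6056 and 0 genes were called, and no member's call changed. Over the other named genes 1931 values kept their direction and their side of the threshold, 230 lost the call, 32 gained it, 19 turned with a call in either setting and 59 turned with none. The causes were not tested. Signals near background, as for Prelp and Fmod in treated cells, have the least certain ratios.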

Other observations

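Of 19 tested proteoglycans outside the family, 2 were called higher and 7 lower in no.1, and 2 higher and 6 lower in no.2, with medians of -0.60 and -0.49. Prg4 (lubricin, a joint and tendon lubricant) was at least 40.6-fold lower in no.1 (limma adjusted p = 0.000842) and at least 25.8-fold lower in no.2 (limma adjusted p = 0.00138), and the endothelial-named proteoglycan Esm1 at least 11.6-fold and 7.80-fold lower (limma adjusted p = 0.00839 and 0.0190). Cell surface members moved in both directions. Sdc2 (log2 fold change 1.56 in no.1 and 1.37 in no.2, limma adjusted p = 0.0165 and 0.0383) and Gpc2 (0.94 and 0.92, limma adjusted p = 0.0205 and 0.0351) were higher. Sdc1 (-1.02 and -1.02, limma adjusted p = 0.0239 and 0.0377) was lower in both. So was Gpc3, in no.1 (-3.17, limma adjusted p = 0.0153) and in no.2 (-2.64, also called). The large matrix proteoglycan Vcan was lower in no.2 (-1.16, limma adjusted p = 0.0210) and in no.1 (-0.75, also called). The called shares of all tested genes were 21.4% higher and 26.4% lower in no.1 and 12.1% and 16.2% in no.2. With spike-in scaling the balance of this list turned to 14 higher and 2 lower in no.1 and 9 and 2 in no.2. The signs of Sdc1 and Vcan then turned in both groups. Both Gpc3 calls were lost there (-1.32, adjusted p = 0.155 in no.1, and -1.38, adjusted p = 0.152 in no.2). With averaged controls 0 were higher and 3 lower in no.1, and 0 and 1 in no.2.

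Of 13 tested leucine-rich repeat genes outside the family, 5 were called in each direction in no.1, and 3 were called higher and 5 lower in no.2. Among all tested genes 21.4% were called higher and 26.4% lower in no.1, and 12.1% and 16.2% in no.2. The list's median was 0.11 in no.1 and 0.37 in no.2, beside -0.12 and -0.10 over all genes. The Nogo receptor Rtn4r (-3.39 in no.1 and -3.11 in no.2, limma adjusted p = 0.000885 and 0.00178), the axon guidance ligand Slit3 (-4.04 and -2.64, limma adjusted p = 0.00152 and 0.00662) and Lrrc32, which anchors latent TGF-beta (-2.49 and -2.51, limma adjusted p = 0.00610 and 0.0113), were lower in both. Lrrc17 was lower in no.1 (-2.17, limma adjusted p = 0.00387) and also called lower in no.2 (-1.77). Lrig1, an inhibitor of receptor tyrosine kinases, was higher in no.2 (1.35, limma adjusted p = 0.0104). The no.1 value of Lrig1, among the 5 called higher there, was 0.95. With spike-in scaling no.1 had 8 higher and 3 lower and no.2 had 8 higher and 4 lower. The no.1 calls of Lrrc32 (-0.65, adjusted p = 0.0844) and Lrrc17 (-0.32, adjusted p = 0.275) were then lost, as was the no.2 call of Lrrc17 (-0.51, adjusted p = 0.113). With averaged controls 0 were higher and 5 lower in no.1, and 0 and 2 in no.2.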
